A study of Homo sapiens with 6 samples.

Results

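The genes described here encode the subunits of potassium, calcium and sodium channels that open with voltage, with intracellular calcium or by leak. They were taken by symbol: every row whose name starts with Kcn, letters and a number, with Cacna, Cacnb or Cacng, or that reads Scn, a number and a or b. Of the 21872 rows of the count table, 133 were such genes: 93 for potassium, 26 for calcium and 14 for sodium channels. The rule used no measured value. Bulk mRNA sequencing covered 3 HuR knockout and 3 control libraries of MOC2, a head and neck squamous carcinoma line of mouse oral origin. HuR binds AU-rich stretches of many mRNAs and stabilises them; its gene is Elavl1. The knockout cells had received lentiviral particles carrying CRISPR/Cas9 against HuR, and the control cells particles carrying a CRISPR/Cas9 control, at 25 MOI (viral particles per cell) for 18 h and with 72 h more in culture after washing. Both were grown in DMEM with fetal bovine serum; the protocol speaks of 1 isolated clone, and nothing says that libraries of a group came from separate clones, so p-values measure only the spread between these libraries, which may be technical. Titles call the knockout libraries KD, and the sample labels name human as the species, while the symbols are those of mouse.

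Potassium channels let potassium leave the cell and hold the membrane potential negative. Inward rectifiers and 2-pore leak channels act at rest, voltage-gated channels repolarise after depolarisation, and calcium-activated channels couple calcium signals to the membrane potential. In voltage-gated calcium channels the alpha-1 subunit forms the pore, while the alpha-2-delta and beta subunits bring it to the membrane and tune its gating. Sodium channels likewise have a pore-forming alpha and an accessory beta subunit. In carcinoma cells, which do not normally fire action potentials, such channels are known for roles in volume control, migration, proliferation and calcium entry.

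Elavl1 mRNA was at 112 ± 5.7 CPM (counts scaled to a common library total) in knockout and 115 ± 6.57 CPM in control libraries (SD, n = 3 each; edgeR quasi-likelihood adjusted p = 0.82). This mRNA therefore gives no check of the labels, and knockout is used here as the labels give it. Library totals lay between 16746166 and 20097377 counts in knockout and between 16158516 and 21294330 counts in control. Knockout library 3 stood somewhat apart: across all genes its log2 CPM correlated at 0.924 and 0.931 with the other knockout libraries, which correlated with each other at 0.978 (Pearson's r over genes, given as a description). Of 10 epithelial markers, 9 were tested, of which 7 fell (Epcam, Cdh1, Krt7, Krt8, Krt18, Cldn4 and Cldn7) and 1 rose. The summed level of the 10 was 3007 to 4396 CPM in knockout and 8820 to 11208 CPM in control libraries, with Krt7 and Krt8 the largest parts. The squamous markers among them did not fall together. Trp63 rose, from 0 in control to 1.53, 4.51 and 15.8 CPM in knockout (edgeR quasi-likelihood adjusted p = 0.0165). Its row held multiples of 11 in knockout as deposited and was divided by 11. With no count in control, it entered the test through the knockout libraries only. Krt14 did not pass (adjusted p = 0.0873). Krt5, not tested, held 42, 10 and 3 counts in knockout and 1, 1 and 0 in control. Of 9 fibroblast markers, 4 were tested and 3 rose. Their sum was 408 to 430 CPM in knockout and 3.73 to 8.42 CPM in control, with Lum at 0 in every library. In knockout nearly all of it was Col1a1 (119 to 199 CPM), Col3a1 (216 to 233 CPM) and Pdgfrb (12.6 to 51.9 CPM). Pdgfra did not pass (edgeR quasi-likelihood adjusted p = 0.595), and Col1a2, Dcn, Postn and Thy1 were each at 0.796 CPM or less. Markers of neurons (10 genes, 2 higher and 3 lower of 7 tested) summed to 12.2 to 59.4 CPM in knockout and 80.7 to 101 CPM in control. Of 12 heart and skeletal muscle markers 2 were tested and 1 rose; they summed to 50.1 to 301 CPM in knockout and 239 to 343 CPM in control, nearly all of it Tnnt2 (47.2 to 300.5 CPM in knockout and 239 to 343 CPM in control), with Actn2, Myl2 and Myog at 0 in every library. Smooth muscle markers (6 genes, 1 tested and higher) summed to 237 to 308 CPM in knockout and 156 to 182 CPM in control, nearly all of it Smtn (235 to 307 CPM in knockout and 156 to 182 CPM in control); Acta2, Tagln, Cnn1, Myh11 and Lmod1 were each at 1.22 CPM or less. Endothelial markers (6 genes, none tested) summed to at most 1.96 CPM in knockout and 0.729 CPM in control. Leukocyte markers (6 genes, none tested) summed to at most 0.163 CPM in knockout and 0.702 CPM in control, with Itgam and Adgre1 at 0 throughout. Fewer cells of a type and less RNA per cell cannot be told apart in such bulk libraries, and the part of any of these shifts in the channel results was not tested.

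Most channel genes had few or no counts in these cells. Of the 133 rows, 28 had no count in any library and 67 had too few counts to test, none of them above 1.65 CPM in any library. The remaining 38 were tested. Of these, 14 were higher and 8 lower in knockout at an adjusted p under 0.05, and 16 did not pass; 13 of the 14 and all 8 changed at least 2-fold. Without knockout library 3 the numbers were 18 higher and 9 lower, without control library 1 they were 12 and 5, and without control library 3 they were 10 and 4. Over all 12293 genes tested, 35.7% changed, 20.3% higher and 15.4% lower. The share among channel genes was 57.9%, but it cannot be read directly against that background, since a gene near 0 in one group enters the test only through the other, and such genes passed more often. Of the 38, 10 met the count minimum in every library of the knockout group only, and 9 of them were higher, where 79.2% of all such genes were. Another 5 met it in control only, and 4 of them were lower, where 68.9% of all such genes were. Among the 21 that met it in every library of both groups, 5 were higher, 4 lower and 12 did not pass, or 42.9% changed, where 32% of all such genes did. The median log2 fold change of the 38 was 0.67, and that of all genes tested 0.03. Knockout and control libraries did not overlap in CPM for 24 of the 38, or 63.2%, against 57.6% of all genes. Knockout lay above control for 16 (background 29.7%) and below for 8 (background 27.9%). The median and these overlap counts carry the same limit as the share. The 10 and 5 channel genes that entered through knockout or control only stand beside 619 and 557 of all 12293. Nothing is therefore read from the median or the overlap counts.

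**Figure D1:**
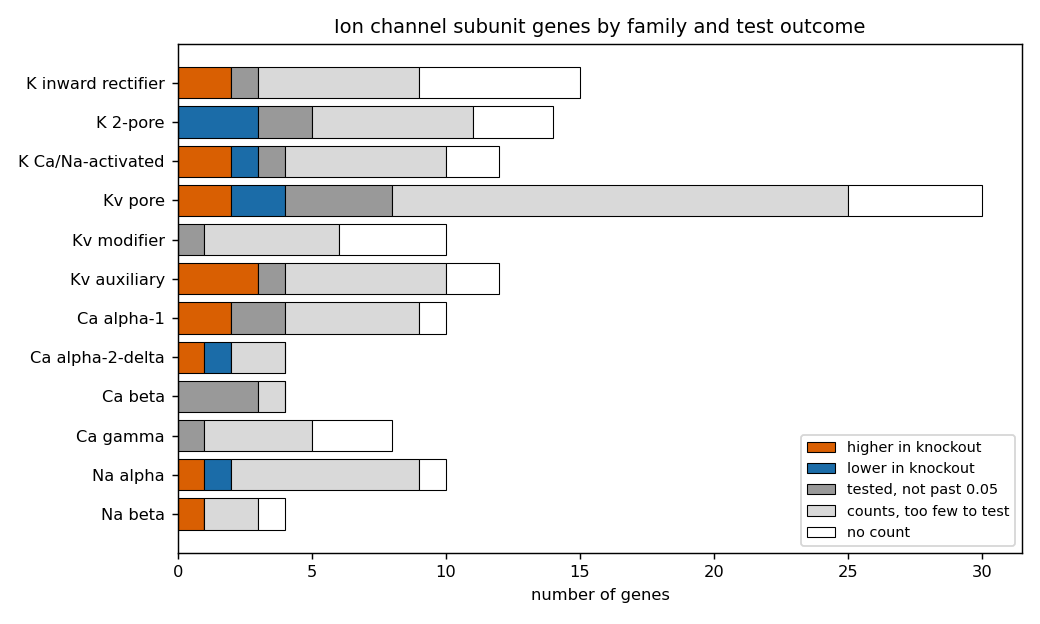
Number of channel subunit genes in each family (horizontal axis), split by outcome: higher or lower in HuR knockout at an adjusted p under 0.05, tested and not past it, too few counts to test, or no count. Voltage-gated potassium pore genes are the largest family with 30 rows, of which 8 were tested; the 2-pore family has only lower calls (3) and the inward rectifiers only higher calls (2).

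Both inward rectifier genes that changed were near 0 in control and rose in knockout. They met the count minimum in every library of the knockout group only, where 79.2% of all such genes were higher. Kcnj15 encodes Kir4.2, which passes potassium more readily inward than outward. In knockout libraries 1, 2 and 3 it reached 72, 95.3 and 168 CPM, against 0, 0 and 0.0608 CPM in control libraries 1, 2 and 3. The 3 knockout libraries all stood far above control, and the control signal was 1 count in library 3. The row held 0 in control library 1 and multiples of 11 elsewhere (14542, 21384 and 30239 in knockout as deposited) and was divided by 11. Divided, the ratio was 6353 (exact 95% Poisson interval 1140 to 250980, counting error only; edgeR quasi-likelihood adjusted p = 0.000268). Without control library 1 or 2 the ratio was 4003 and 4044, and without control library 3 Kcnj15 was at least 1491-fold higher. Kcnj12, the strong rectifier Kir2.2, had 4.9, 8.87 and 9.19 CPM in knockout and 0.0936, 0 and 0.0608 CPM in control. Again the groups were far apart, with 3 counts in all of control. The ratio was 148 (interval 50.4 to 722; adjusted p = 0.000788); it was 280 without control library 1 and 94.4 without control library 2. Kcnj4 (Kir2.3), a strong rectifier too, did not pass: it had 0.926, 0.98 and 3 CPM in knockout and 0.702, 0.54 and 0.729 CPM in control (adjusted p = 0.119). Of the other 12 rows, 6 had no count. Among those with too few counts to test, Kcnj2 (Kir2.1) held 4, 20 and 9 counts in knockout and 1, 2 and 1 in control. Kcnj8, the pore of an ATP-sensitive channel, held 2, 30 and 27 counts in knockout and 1 in each control library. Without knockout library 1 both entered the test and passed (edgeR quasi-likelihood adjusted p = 0.0131 for Kcnj2 and 0.00209 for Kcnj8). Tested without control library 1, 2 or 3, Kcnj8 did not pass (adjusted p = 0.0933, 0.0992 and 0.0911), nor did Kcnj2 without control library 3 (0.096).

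The 2-pore leak channels went the other way where they changed. Kcnk1 (TWIK-1), a weak leak channel of epithelia and other tissues, was at 5.88, 2.94 and 1.35 CPM in knockout and at 92.4, 82 and 80.3 CPM in control. Every knockout library was far below every control library. Kcnk1 fell 24.9-fold (log2 fold change -4.64, SE 0.5; adjusted p = 0.00123), or 39-fold without knockout library 1. Kcnk12 (THIK-2), a subunit that gives little current on its own, had 0.654, 0.098 and 0.245 CPM in knockout and 2.9, 2.7 and 4.25 CPM in control. It fell 9.76-fold (adjusted p = 0.0087), or 19-fold without knockout library 1. Kcnk12 met the count minimum in every library of the control group only, where 68.9% of all such genes were lower. Kcnk6 (TWIK-2), a relative of Kcnk1 known from lysosomes, had 1.36, 1.76 and 0.551 CPM in knockout and 3.42, 3.54 and 3.71 CPM in control. These groups did not overlap either, and Kcnk6 fell 2.87-fold (adjusted p = 0.0352). Its call did not hold without control library 1, 2 or 3 (adjusted p = 0.0935, 0.103 and 0.111) and without knockout library 1 (0.0656). Of the others, Kcnk5 (TASK-2), a channel opened by alkaline pH, was at 24 ± 5.55 CPM in knockout and 21.7 ± 1.96 CPM in control (SD, n = 3 each), a log2 difference of 0.14 with a 95% interval of -0.33 to 0.61 (edgeR quasi-likelihood adjusted p = 0.599). Kcnk2 (TREK-1), a channel opened by membrane stretch, had 9.43, 6.76 and 3.8 CPM in knockout and 3.88, 4.62 and 5.04 CPM in control. Knockout library 3 lay below all control libraries and the other knockout libraries above them (adjusted p = 0.265; higher, with 0.0222, without knockout library 3).

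**Figure D2:**
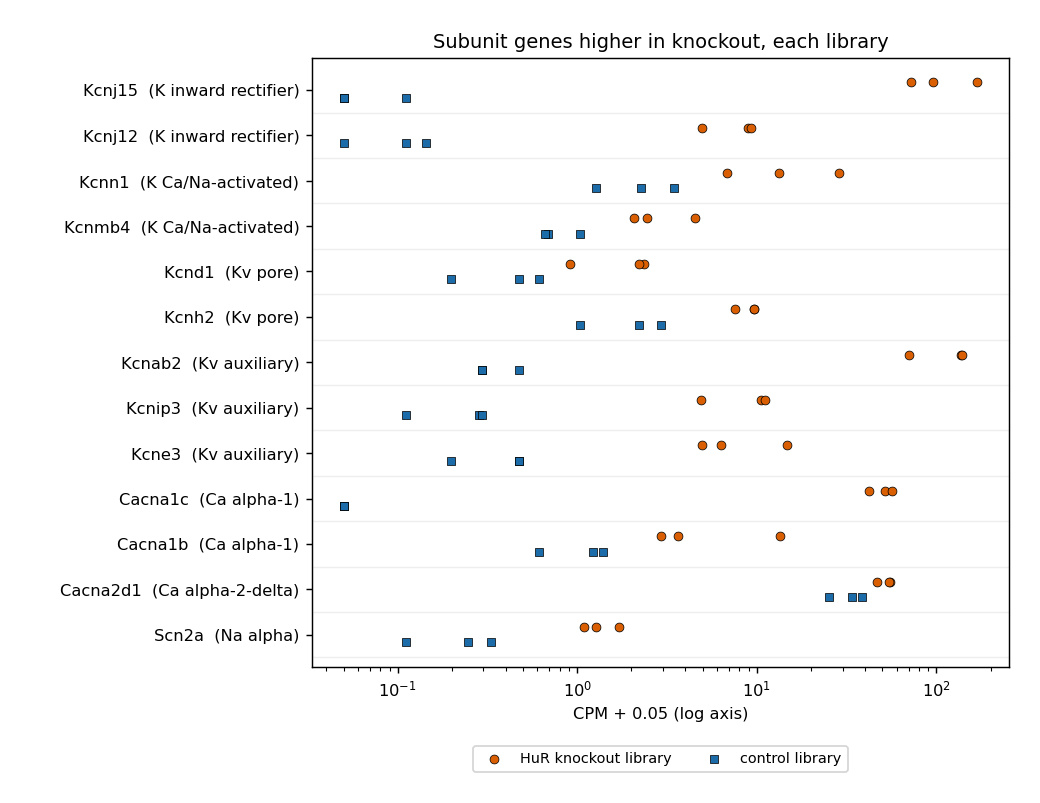
Level of 13 channel subunit genes higher in knockout (CPM plus 0.05, log axis), 1 orange circle per HuR knockout library and 1 blue square per control library, 3 of each. In all 13 rows the circles lie to the right of the squares; the gap is widest for Cacna1c and Kcnj15 and narrowest for Cacna2d1 and Kcnd1.

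Among calcium-activated channels the 2 pore genes that changed moved in opposite directions. Kcnn4 encodes KCa3.1, the intermediate-conductance channel that many epithelial and tumour cells use for volume control and to sustain calcium entry. It was at 217, 129 and 141 CPM in knockout and at 361, 352 and 346 CPM in control. Control libraries lay close together, and all knockout libraries were below them. Kcnn4 fell 2.17-fold (log2 fold change -1.12, SE 0.215; adjusted p = 0.0091), and the call held with any 1 library left out. Kcnn1 (SK1), a small-conductance channel best known from neurons, had 6.76, 13.2 and 28.6 CPM in knockout and 3.42, 2.21 and 1.22 CPM in control. All knockout libraries were above control, library 3 most. Kcnn1 rose 7.02-fold (adjusted p = 0.0154), or 4.32-fold without knockout library 3; without control library 2 or 3 the adjusted p was 0.067 and 0.0612. Kcnmb4, an accessory beta subunit of the large-conductance BK channel, had 2.02, 2.4 and 4.47 CPM in knockout and 0.983, 0.638 and 0.608 CPM in control. It rose 3.93-fold (adjusted p = 0.0152; 0.0744 and 0.0765 without control library 2 or 3). Kcnma1, the BK pore itself, held 1, 5 and 6 counts in knockout after division by 11 and none in control, too few to test. On these counts without a filter it did not pass (edgeR quasi-likelihood adjusted p = 0.0604). With the undivided counts of 11, 55 and 66 the adjusted p was 0.0168, a value that rests on the multiples of 11. The sperm channel gene Kcnu1 did not pass (adjusted p = 0.715).

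Voltage-gated potassium pore genes, the largest family with 30 rows, gave 2 higher and 2 lower genes of 8 tested. Kcnh2, the hERG channel that repolarises the heart, had 7.52, 9.6 and 9.62 CPM in knockout and 2.15, 0.982 and 2.86 CPM in control. All knockout libraries were above control. Kcnh2 rose 4.47-fold (log2 fold change 2.16, SE 0.408; adjusted p = 0.00852), also with any 1 library left out. Its relative Kcnh1 (EAG1), a channel of neurons that many tumours also express, was at 0, 0.392 and 0.306 CPM in knockout and 1.83, 1.72 and 2.61 CPM in control. It fell 8.52-fold (adjusted p = 0.0229), or 13.3-fold without knockout library 2. Without control library 1, 2 or 3 the adjusted p of Kcnh1 was 0.0669, 0.0679 and 0.0899. Kcnh1 met the count minimum in every library of the control group only, where 68.9% of all such genes were lower. Kcnd1 (Kv4.1), a rapidly inactivating channel, had 2.29, 2.16 and 0.857 CPM in knockout and 0.562, 0.147 and 0.425 CPM in control. It rose 4.63-fold (adjusted p = 0.0312), a call that held only without knockout library 3 among the 6 left-out libraries (adjusted p of 0.0616 to 0.105 in the other 5). Kcnd1 met the count minimum in every library of the knockout group only, where 79.2% of all such genes were higher.

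Other pore genes tested did not pass. Kcnq5, of a slow channel of neurons and smooth muscle, was at 4.33 ± 0.233 CPM in knockout and 5.37 ± 1.27 CPM in control (SD, n = 3 each; edgeR quasi-likelihood adjusted p = 0.388). The 95% interval of its log2 difference was -0.93 to 0.31. Kcnq1, the slow channel of heart and epithelia, had 1.74, 0.441 and 0.735 CPM in knockout and 3.42, 0.884 and 1.09 CPM in control, and the groups overlapped (adjusted p = 0.37). Its row may also hold reads of the overlapping antisense transcript Kcnq1ot1, since the strand setting of the counting is not given. Kcnb2, of a delayed rectifier, held 7, 29 and 14 counts in knockout and 1, 0 and 0 in control, too few to test with all libraries; it passed without knockout library 1 and without control library 1, 2 or 3 (adjusted p = 0.00692, 0.0387, 0.0427 and 0.0428). None of the 8 Kcna genes, which form the Kv1 channels, could be tested, and none reached more than 0.674 CPM in any library. Of the 10 modifier genes, whose products are silent alone and alter other Kv channels, Kcnf1 was the only one tested. It had 84.1, 74.9 and 34.8 CPM in knockout and 38.8, 39.1 and 44.9 CPM in control. Knockout library 3 was the lowest of the 6 and the other knockout libraries the highest (adjusted p = 0.151; 0.000296 without knockout library 3, 1.95-fold higher). Kcns3, another modifier, held no count in knockout and 25, 8 and 14 counts in control, at least 14.8-fold lower against 3 counts over the knockout group. It was not tested with all libraries, and it passed without any 1 of the knockout libraries (adjusted p = 0.0204, 0.028 and 0.00569 without library 1, 2 and 3) and without control library 2 (0.0253).

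The auxiliary subunits of voltage-gated potassium channels gave 3 higher genes of 4 tested, and their calls held with any 1 library left out. These 3 met the count minimum in every library of the knockout group only, where 79.2% of all such genes were higher. Kcnab2 encodes Kvbeta2, a cytoplasmic subunit with an aldo-keto reductase fold that binds Kv1 pores. It was at 138, 139 and 70.2 CPM in knockout and at 0.421, 0.246 and 0.243 CPM in control. All knockout libraries were far above control, library 3 least. Its row was not among those divided by 11, and its control libraries held 9, 5 and 4 counts. Kcnab2 rose 368-fold (log2 fold change 8.52, SE 0.433; adjusted p = 0.000205). Kcnip3, a calcium-binding subunit of Kv4 channels that is also described as the transcriptional repressor DREAM, had 4.85, 10.5 and 11 CPM in knockout and 0.234, 0.246 and 0.0608 CPM in control. It rose 45.6-fold (log2 fold change 5.51, SE 0.57; adjusted p = 0.00107). Kcne3, a single-pass subunit that keeps Kcnq1 channels open in intestinal epithelium, had 4.9, 6.22 and 14.6 CPM in knockout and 0.421, 0.147 and 0.425 CPM in control. It rose 25.6-fold (adjusted p = 0.00256), or 16.7-fold without knockout library 3, which was the highest. Kcnab3, of a related beta subunit, was at 6.8 ± 1.95 CPM in knockout and 6.61 ± 1.44 CPM in control (SD, n = 3 each), with a log2 interval of -0.69 to 0.77 (edgeR quasi-likelihood adjusted p = 0.929). The values of the pores these subunits are known to join differed. The Kv1 genes were too low to test. Of the Kv4 pores, Kcnd1 rose as given above, Kcnd2 had 0 counts in knockout and 4 in control, and Kcnd3 had no count. Kcnq1, which Kcne3 joins, did not pass.

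**Figure D3:**
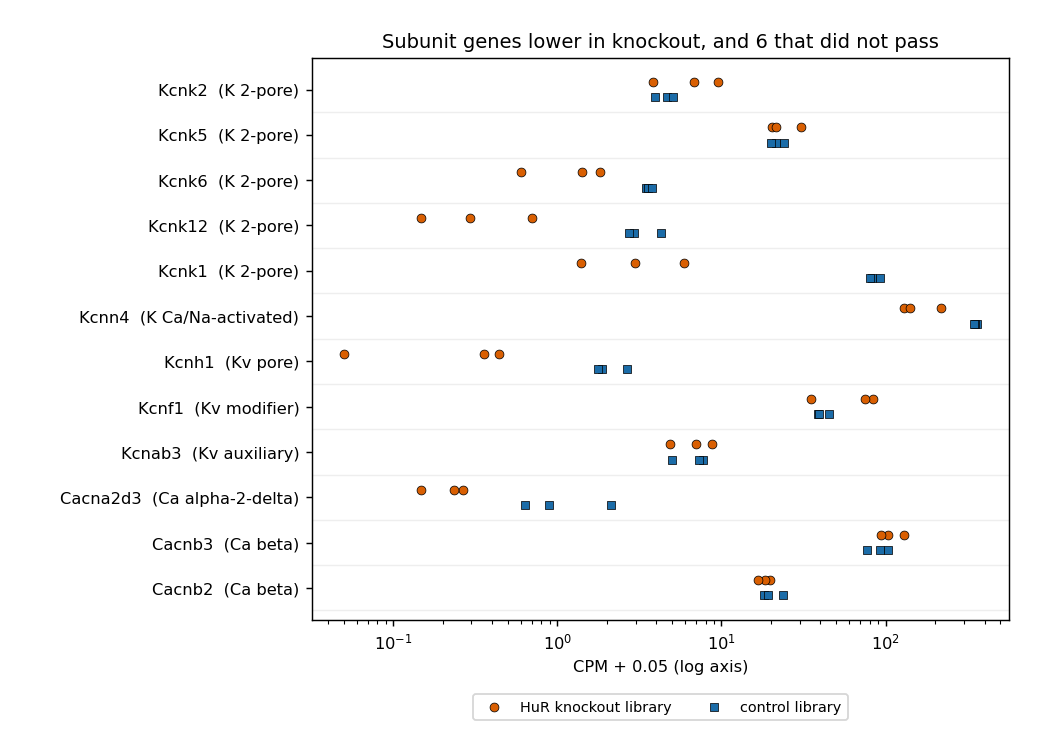
Level of 6 channel subunit genes lower in knockout and of the 6 with the highest mean level among those that did not pass (CPM plus 0.05, log axis), 1 orange circle per HuR knockout library and 1 blue square per control library, 3 of each. Kcnk1 shows the widest gap among the lower genes; the groups overlap for Kcnk5, Kcnk2, Kcnf1, Kcnab3, Cacnb3 and Cacnb2.

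Of 10 calcium channel pore genes, 4 were tested and 2 rose. Cacna1c encodes Cav1.2, the L-type pore that carries the calcium current of heart and smooth muscle. Deposited counts were 8525, 11638 and 10186 in knockout and 0 in each control library; divided by 11, they were 775, 1058 and 926. On that scale Cacna1c was at 42.2, 51.8 and 56.7 CPM in knockout and at 0 in control. The knockout libraries lay within a narrow range of each other. Cacna1c was at least 971-fold higher against 3 counts over the control group (edgeR quasi-likelihood adjusted p = 0.00029). Leaving out control library 1 or 2 lowers this bound to 612-fold and 618-fold, since the control total is then smaller. Cacna1c met the count minimum in every library of the knockout group only, where 79.2% of all such genes were higher. Cacna1b (Cav2.2), the N-type pore of nerve terminals, had 3.6, 13.5 and 2.88 CPM in knockout and 0.562, 1.18 and 1.34 CPM in control. All knockout libraries were above control, library 2 most. Cacna1b rose 6.51-fold (adjusted p = 0.0278), or 3.17-fold without knockout library 2; the call did not hold without control library 1, 2 or 3 (adjusted p = 0.096, 0.0918 and 0.0802). Cacna1i (Cav3.3), a T-type pore, had 2.18, 6.17 and 3.06 CPM in knockout and 0.515, 0.0491 and 1.28 CPM in control. Its groups did not overlap, but it did not pass (adjusted p = 0.0564). Cacna1a (Cav2.1), the P/Q-type pore, was at 3.16 ± 0.948 CPM in knockout and 3.89 ± 0.382 CPM in control (SD, n = 3 each; edgeR quasi-likelihood adjusted p = 0.49). Cacna1e, the R-type pore, held no count in knockout and 8, 6 and 9 counts in control, too few to test.

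Of 16 accessory calcium channel genes, 6 were tested, and 1 rose and 1 fell. Cacna2d1, the alpha-2-delta subunit that binds gabapentin, had 46.9, 55.1 and 54.5 CPM in knockout and 25.2, 38.2 and 33.8 CPM in control. The groups did not overlap, and Cacna2d1 rose 1.61-fold (log2 fold change 0.69, SE 0.184; adjusted p = 0.0281). That call did not hold without control library 1, 2 or 3 (adjusted p = 0.0734, 0.0506 and 0.0956) and without knockout library 2 (0.074). Cacna2d3, of another alpha-2-delta subunit, had 0.218, 0.098 and 0.184 CPM in knockout and 0.842, 0.589 and 2.07 CPM in control. It fell 6.77-fold (adjusted p = 0.0208). Without control library 3 it was 4.3-fold lower and no longer passed, nor did it without knockout library 2 (adjusted p = 0.0682 in both). Cacna2d3 met the count minimum in every library of the control group only, where 68.9% of all such genes were lower. Of the beta subunits, which carry the pore to the membrane, 3 were tested and none passed. Cacnb3 was at 109 ± 17.6 CPM in knockout and 90.9 ± 13.4 CPM in control, and Cacnb2 at 18.3 ± 1.5 CPM in knockout and 20.4 ± 2.97 CPM in control (SD, n = 3 each). Their log2 differences were 0.26 (95% interval -0.15 to 0.67) and -0.16 (-0.56 to 0.24), with edgeR quasi-likelihood adjusted p = 0.276 and 0.489. Cacnb1 did not pass either (adjusted p = 0.204). Cacng8, whose product is known in brain as an auxiliary subunit of AMPA receptors, had 6.16, 5.15 and 1.1 CPM in knockout and 2.15, 0.884 and 0.911 CPM in control (adjusted p = 0.111; higher, with 0.00427, without knockout library 3).

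Of the sodium channel genes, 3 of 14 were tested and all 3 changed, each also with any 1 library left out. Scn2a (Nav1.2), a neuronal pore, had 1.04, 1.23 and 1.65 CPM in knockout and 0.281, 0.196 and 0.0608 CPM in control. It rose 6.81-fold from few counts (adjusted p = 0.00895), and its largest adjusted p with 1 library left out was 0.049. Scn2a met the count minimum in every library of the knockout group only, where 79.2% of all such genes were higher.

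**Figure D4:**
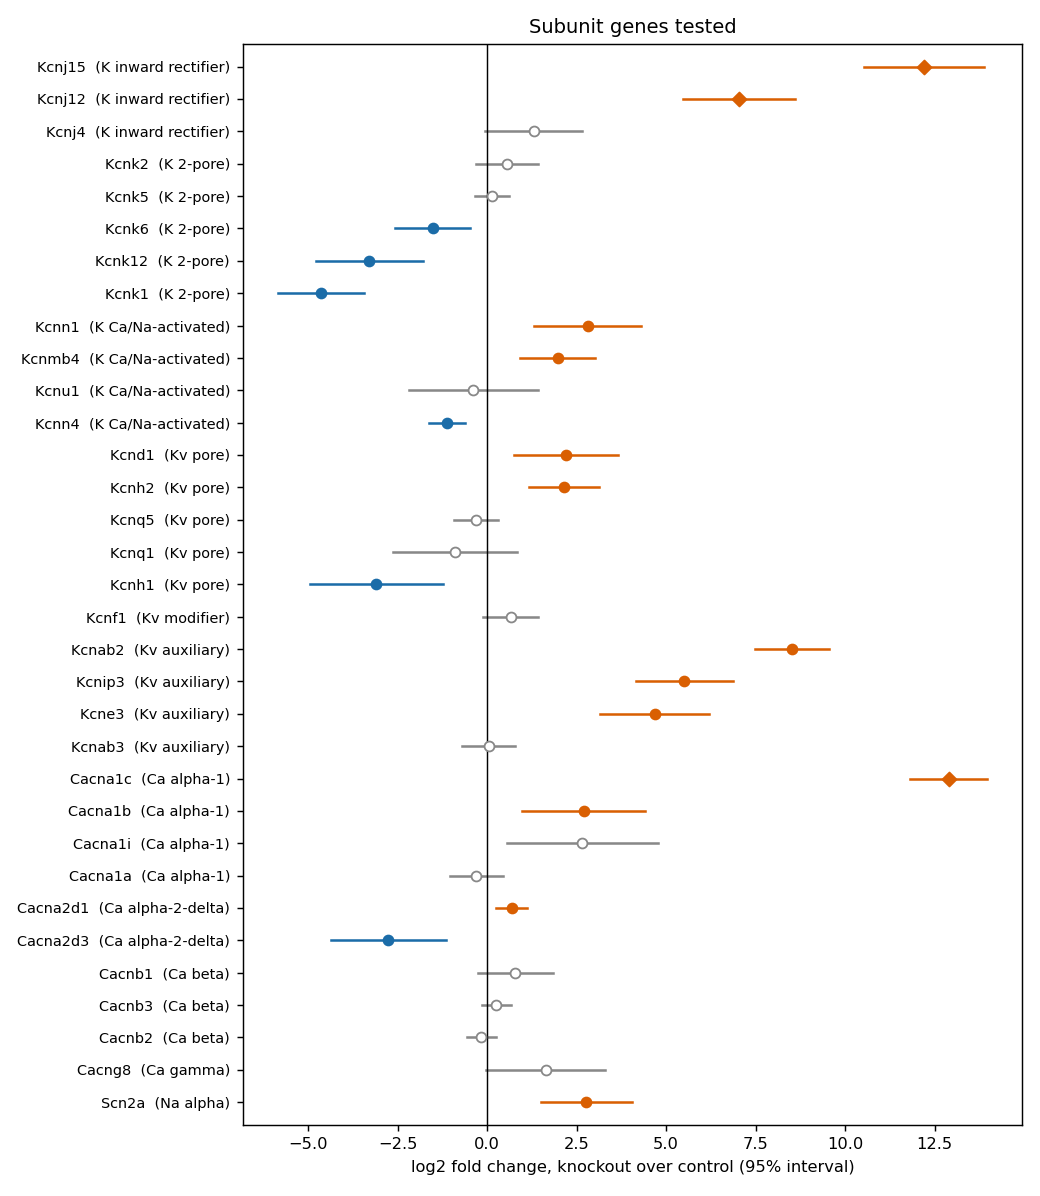
Log2 fold change of knockout over control with its 95% interval for 33 channel subunit genes tested, by family; orange is higher and blue lower at an adjusted p under 0.05, open grey circles did not pass. Diamonds mark genes with at most 3 counts in control (Kcnj15, Kcnj12, Cacna1c), whose fitted value depends on the prior count. The 2-pore genes lie left of 0 except Kcnk5 and Kcnk2, and Kv auxiliary genes lie right of 0 except Kcnab3 near 0.

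The knockout libraries differed in how far their channel genes stood from control. Knockout library 3 was the highest of the 3 for 10 of the 14 higher channel genes (71.4%), and for 65% of all genes that were higher. Knockout library 1 was the highest, and so the nearest to control, for 6 of the 8 lower channel genes (75%), and for 61.6% of all lower genes. Kcnab2, Kcnd1 and Cacna1b went against this order, with knockout library 3 the lowest. With any 1 library left out, 13 of the 22 changed genes kept their call throughout and 9 lost it at least once. The number losing it was 6, 8 and 9 without control library 1, 2 and 3, and 2, 4 and 0 without knockout library 1, 2 and 3. Over all genes the share that changed was 18.4% to 21.5% without 1 control library.

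**Figure D5:**
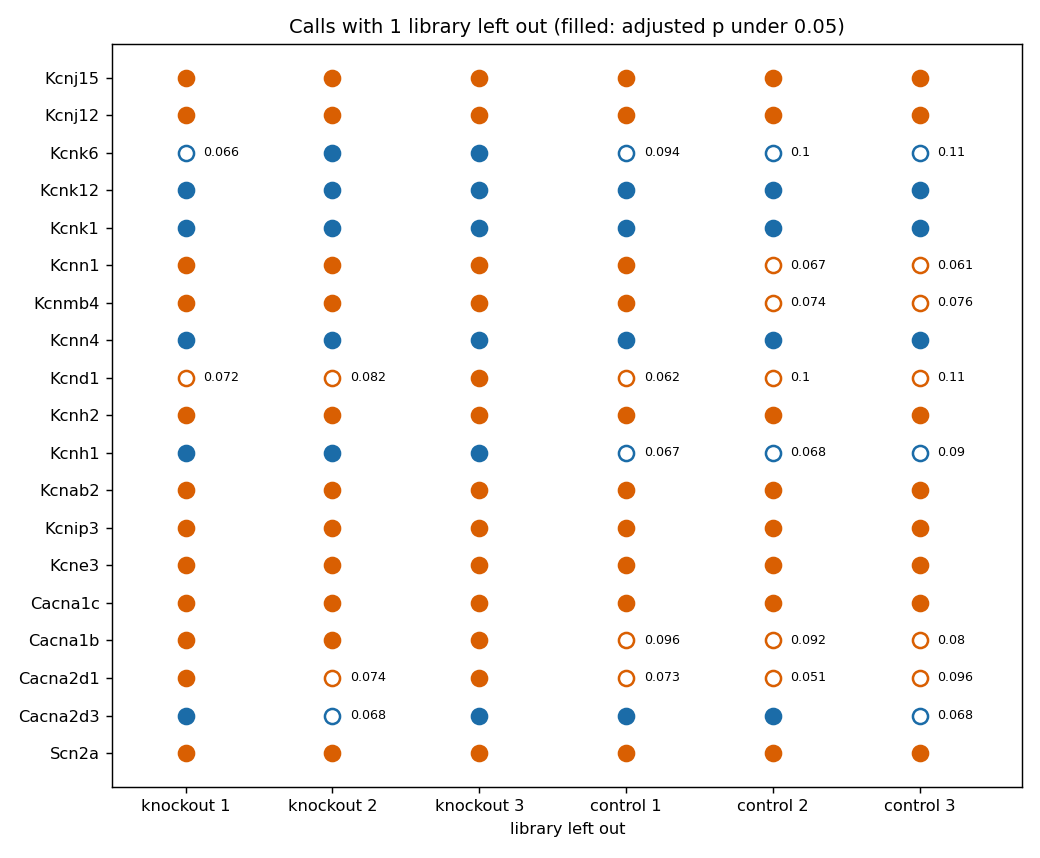
Calls of 19 changed channel subunit genes (rows) with 1 library left out (columns); orange marks genes higher and blue genes lower in knockout. A filled circle has an adjusted p under 0.05, and an open circle is followed by its adjusted p; 11 genes are filled in all 6 columns.

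Genes that work with these channels were examined from 6 lists. Of 152 listed, 85 were tested, and 30 were higher, 15 lower and 40 not past the threshold. The share changed was 52.9%, beside 35.7% of all genes tested, and it too includes genes that entered the test through 1 group, so nothing is read from it. Of 10 proteins that bind voltage-gated sodium channels, 8 were tested, with 3 higher and 2 lower. Fgf13, a cytoplasmic partner of sodium channel pores, had 2.67, 3.28 and 2.82 CPM in knockout and 35.2, 43.2 and 34.6 CPM in control, and fell 12.8-fold (log2 fold change -3.68, SE 0.184; adjusted p = 0.000205). Of 13 regulators of voltage-gated calcium channels, 10 were tested, with 2 higher and 3 lower. Gem, a small GTPase that blocks calcium channels through the beta subunit, had 9.43, 13.1 and 38.5 CPM in knockout and 1.45, 0.54 and 0.851 CPM in control. It rose 21.2-fold (adjusted p = 0.00438), or 11.8-fold without knockout library 3. Its relative Rem2 fell 7.24-fold (adjusted p = 0.0025), with 2.13, 0.882 and 1.84 CPM in knockout and 14.5, 10.3 and 10.3 CPM in control. Of 10 partners of Kv4, BK and ATP-sensitive channels 2 were tested, and neither passed.

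Of 29 genes of calcium entry and release, 22 were tested, with 8 higher and 4 lower. The 3 Orai genes, which form the store-operated calcium channel, did not move together. Orai1 had 8.72, 6.66 and 7.59 CPM in knockout and 21.6, 24.2 and 20.2 CPM in control and fell 2.87-fold (edgeR quasi-likelihood adjusted p = 0.00159). Orai2 had 23.1, 28.4 and 19.9 CPM in knockout and 5.99, 4.76 and 5.53 CPM in control and rose 4.38-fold (adjusted p = 0.000849), and Orai3 rose 2.87-fold (adjusted p = 0.00191). Stim1, the calcium sensor that opens them, did not pass (adjusted p = 0.155). Atp2a3, a calcium pump of the endoplasmic reticulum, rose 28.8-fold (adjusted p = 0.00146), and the calcium release channel gene Itpr2 rose 13.3-fold (adjusted p = 0.00123). Of 29 sodium and potassium transport genes, 17 were tested, with 8 higher and 1 lower. The sodium pump subunit Atp1b1 had 85.9, 132 and 186 CPM in knockout and 15.8, 11 and 12.3 CPM in control and rose 10.3-fold (adjusted p = 0.000831). Slc9a2, a sodium-proton exchanger, fell 12-fold (adjusted p = 0.00121). Of 61 other cation channel genes, 59 were in the table and 26 tested, with 9 higher and 5 lower. Among them the stretch-activated channel Piezo2 fell 15.8-fold (adjusted p = 0.00319), or 28.9-fold without knockout library 1. The median log2 fold changes of the tested genes lay between -0.06 for the calcium channel regulators and 0.70 for the transport genes, where that of all genes tested was 0.03. These medians also include genes that entered the test through 1 group, so nothing is read from them.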

How the data were processed

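The authors deposited one table of whole-number counts per gene symbol. Per the submitters' processing notes, STAR 2.7.1a, featureCounts and hg38 were involved, with no roles stated. Annotation and strand setting were not given in the sources used here, so reads shared by paralogues or overlapping genes could not be checked. The 1704 rows that were 0 in control library 1 but not in every library held only multiples of 11 and were divided by 11; 36 channel rows were among them, 2 of them tested. Knockout was tested against control by the quasi-likelihood test of edgeR 4.0.16 (R 4.3.3) after filterByExpr and TMM scaling, with Benjamini-Hochberg adjustment over 12293 genes and a threshold of 0.05; every adjusted p is from this test unless another is named. The filter's minimum of 10 counts equals 0.52 CPM. CPM are counts relative to the TMM-scaled total. Standard errors come from the fold change and its F statistic. A group at 0 counts is set to a floor of 3 counts over the group; a group with 1 to 3 counts gives a ratio with an exact 95% interval. These exact intervals and the bounds cover counting error only, at library totals of 16158516 to 21294330. The 95% intervals of log2 differences come from the standard errors of the fit and include the spread between libraries. A chi-square test of counts found every pair of libraries within a group to differ beyond sampling noise. No gene lengths were used, so CPM are not corrected for length. Marker sums, their largest parts and the choice of genes by highest level therefore follow counts. Levels are otherwise not compared between genes. The procedure was tested on simulated data. It recovered 26% of 100 genes changed 2-fold and 87% of 100 changed 4-fold, with 15 false calls in 12175 genes. A gene that did not pass may therefore still have changed 2-fold. Alternatives used limma 3.58.1 (voom), DESeq2 1.42.0, other scaling and filters, a replicate block and each library left out. Members and lists were chosen with earlier results of these data known. Some genes are counted in totals but not reported here by name. The other changed channel genes are named, with those of the highest level among the others and those whose call changed with 1 library left out; partner genes and genes too low to test that are named were chosen after their values were seen.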

Additional observations from a re-analysis of the deposited data

How the results depend on the processing

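The numbers of channel genes higher (14) and lower (8) stayed within 1.5 times under the values as deposited (16 and 8), without the rows at 0 in control library 1 (12 and 8), with RLE size factors (14 and 8), without a filter on low counts (18 and 10), with DESeq2 (15 and 8) and with limma-voom (14 and 8). With 1 library left out they ranged from 10 to 18 and from 4 to 9; the lower count was 5 without control library 1 and 4 without control library 3. Partner genes ranged from 21 to 34 higher and from 10 to 17 lower. The log2 fold change of Elavl1 ranged from -0.0888 to 0.00615 with 1 library left out, positive only without knockout library 3 (adjusted p = 0.962 by edgeR). No called channel gene changed direction. The cause of these shifts was not tested beyond the smaller number of libraries.

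Whether the replicate numbers pair the libraries was not settled. The deviations of same-numbered libraries from their group means correlated at -0.05, 0.26 and 0.02, and not every library correlated best with its own number. Deviations within a group cancel out, so these correlations depend on each other and cannot show whether libraries were paired. With the replicate block 12 channel genes were higher and 7 lower, 19 of them among the 22 called without it; Kcnd1, Kcnk6 and Kcnn1 did not pass with it (adjusted p = 0.0584, 0.0577 and 0.0535 by edgeR). Of the 22 calls, 22 were shared as deposited, without filter and with DESeq2, and 21 with limma-voom, where Cacna1b was lost. Depth limits the 67 channel genes with too few counts to test; without a filter Cacna1e, Kcns3, Kcna7, Kcnb2, Kcnj2 and Kcnj8 also passed.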
